A study of Mus musculus with 6 samples.

Results

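The NRF2 antioxidant response was examined in cultured cardiac fibroblasts (CFs) through 10 genes chosen by name: the transcription factor gene *Nfe2l2*, its repressor *Keap1*, and 8 target genes, *Nqo1*, *Hmox1*, *Gclc*, *Gclm*, *Slc7a11*, *Txnrd1*, *Srxn1* and *Prdx1*. All 10 had a row among the 19446 genes of the deposited table, and all 10 passed the filter on low values (10 or more reads in 2 or more libraries), which left 15948 genes for every test. RNA-seq libraries had been made from untreated CFs of 5-week-old C57BL/6J mice of 2 genotypes, wild type (WT) and CharmeKO, in which a PolyA signal has been inserted into the *Charme* locus, the source of a long non-coding RNA. There were 3 libraries per genotype, numbered 1 to 3 in each. By the methods, CFs grew out of fragments of atrial tissue pooled from 6 littermates, on fibronectin, in a medium with serum and the reducing agent 2-mercaptoethanol that both genotypes shared, so these are mixed outgrowths and not sorted cells. Freshly isolated CFs were not analysed here. The labels number the libraries without saying that each is a separate culture, so p-values measure only the spread between these libraries.

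The libraries held 38330019 to 46797446 reads assigned to genes, and values are given as normalised reads, that is, gene reads divided by a size factor per library. The member with the fewest reads was *Slc7a11*, with 83 in CharmeKO 2, so no member was near the limit of 3 reads (0.0641 to 0.0783 CPM, reads scaled to the library total) that a count of 0 allows, a limit that covers counting error only. Reads of the feature taken as *Charme* numbered 5, 15 and 11 in WT and 0, 6 and 3 in CharmeKO, which overlapped. The pools differed in sex: the Y-linked *Ddx3y* was at 92.3 normalised reads in WT 3 against 2081 to 3204 in the other libraries, and the X-inactivation transcript *Xist* was at 7.86 in CharmeKO 2 against 2162 to 28789.8 elsewhere. The 12 fibroblast markers summed to 34593 to 58116 CPM, against at most 24.4 CPM for the measured cardiomyocyte markers.

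NRF2, the product of *Nfe2l2*, is a transcription factor that is held at a low level in resting cells because KEAP1 presents it to a ubiquitin ligase for degradation. Oxidants and electrophiles modify cysteines of KEAP1, NRF2 then accumulates, pairs with a small MAF protein and binds antioxidant response elements (AREs) near its targets. The targets make glutathione and thioredoxin available, reduce quinones and degrade heme. Since NRF2 is controlled mainly as a protein, the level of its mRNA is not a reading of its activity. In bulk RNA, fewer cells of a type and less RNA per cell cannot be told apart.

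The AREs that the targets carry were looked for in RefSeq promoter windows (GRCm38.p6), which run from 250 bases before a transcript start to 50 bases after it. The table used held 10 such windows for 8 of the 10 members, while *Hmox1* and *Gclc* had none in it. The core motif TGACNNNGC was searched on both strands. It occurred in 5 of these 8 members, against 1911 of 11306 tested genes (16.9%) with a window and 4071 of all 32851 windows (12.4%). The 5 stretches are shown because they hold the letters that NRF2 is known to bind. They are written 5′ to 3′ along the gene, with the motif in capitals, which reads as its reverse complement in all but *Nfe2l2*. A match is a description of the letters and not a shown binding site.
Gclm (chr3:122245398-122245456, plus strand, motif from 134 bases before the start): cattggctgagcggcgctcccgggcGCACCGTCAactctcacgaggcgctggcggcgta
Prdx1 (chr4:116685441-116685499, plus strand, from 133 bases before): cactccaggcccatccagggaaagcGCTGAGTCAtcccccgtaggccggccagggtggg
Txnrd1 (chr10:82859089-82859147, plus strand, from 92 bases before the second of its 3 starts): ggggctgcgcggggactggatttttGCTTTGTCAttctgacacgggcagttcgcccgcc
Nfe2l2 (chr2:75704870-75704913, minus strand, from 240 bases before): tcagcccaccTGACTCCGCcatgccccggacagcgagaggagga
Srxn1 (chr2:152105542-152105570, plus strand, from 28 bases after the start, in the 5′ UTR): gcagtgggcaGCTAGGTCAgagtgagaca
The windows of *Keap1*, *Nqo1* and *Slc7a11* and the other 2 of *Txnrd1* did not hold these letters, which says nothing of AREs farther away. Variants of the core motif were not searched in any window.

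The 2 regulators were the steadiest members. *Nfe2l2* (ENSMUSG00000015839, chr2:75675513-75704641, minus strand; all gene coordinates are GRCm38) had 5550.4, 4804 and 5094 normalised reads in WT 1, 2 and 3 and 6692, 4798 and 6721 in CharmeKO 1, 2 and 3. CharmeKO 1 and 3 lay above all WT libraries and CharmeKO 2 below them, so the groups overlapped. Its mean was 5149 ± 376 in WT and 6070.2 ± 1102 in CharmeKO (SD, n = 3; log2 fold change 0.22, SE 0.189). *Keap1*, whose product also senses the oxidants (ENSMUSG00000003308, chr9:21229730-21239361, minus strand), had 2671, 3231 and 3406 in WT and 2979.5, 3277 and 3756 in CharmeKO. Each CharmeKO library was above the WT library of its number, yet the groups overlapped, with a log2 fold change of 0.11 (SE 0.172). The highest library was 1.40-fold above the lowest for *Nfe2l2* and 1.41-fold for *Keap1*, and the log2 ranges of both genes were narrower than those of most genes, at percentiles 14.7 and 15.1 of the genes tested.

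*Nqo1*, which encodes the quinone reductase NQO1 and is a much used readout of NRF2 activity (ENSMUSG00000003849, chr8:107388225-107403206, minus strand), varied more than any other member. Its values were 3831, 335 and 490.0 in WT 1, 2 and 3 and, in the same order, 4411, 191 and 359 in CharmeKO. Both libraries numbered 1 were thus far above the other 4, whatever the genotype, and the highest library was 23.1-fold above the lowest, a log2 range at percentile 95.4 of the genes tested. Group means were 1552 ± 1975 in WT and 1654 ± 2390 in CharmeKO (SD, n = 3).

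*Hmox1* encodes heme oxygenase 1, which opens the heme ring and frees its iron (ENSMUSG00000005413, chr8:75093621-75100589, plus strand). It had 21885, 12239 and 12339 normalised reads in WT and 26212, 17807 and 13102 in CharmeKO. The libraries numbered 1 were again highest, and CharmeKO 2 lay between them and the rest. Scaled to exon length and library total (RPKM) it was the most abundant member, with a mean of 237 over the 6 libraries (167 to 348). *Nqo1* was at a mean of 24.3 RPKM, but over a range of 3.14 to 66.1.

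Glutathione synthesis was represented by the 2 subunits of glutamate-cysteine ligase, the rate-limiting enzyme, and by the cystine importer. The catalytic subunit gene *Gclc* (ENSMUSG00000032350, chr9:77754535-77794485, plus strand) had 2955, 1473 and 1656 normalised reads in WT and 3031, 1366 and 2460.5 in CharmeKO. The modifier subunit gene *Gclm* (ENSMUSG00000028124, chr3:122245557-122270732, plus strand) had 4312.5, 2562.5 and 2475 in WT and 4809, 2854 and 1932 in CharmeKO. It shares 244 bases of exon with the same-strand gene *Gm6061*, so that some of its reads may have been lost in counting. Both subunits were highest in the libraries numbered 1, and they parted in CharmeKO 3, where *Gclc* was the third highest and *Gclm* the lowest of the 6 libraries. *Slc7a11*, the cystine-glutamate exchanger that brings in the amino acid limiting glutathione synthesis (ENSMUSG00000027737, chr3:49892526-50443614, minus strand), had 557, 158 and 241 in WT and 518, 81.6 and 267 in CharmeKO. Its libraries numbered 2 were lowest in both groups, and the highest library was 6.83-fold above the lowest. At a mean of 0.519 RPKM (0.150 to 0.942) it was the least abundant member by far, while *Gclc* and *Gclm* were at 13.7 and 12.0.

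In the thioredoxin branch, *Txnrd1*, the cytosolic thioredoxin reductase (ENSMUSG00000020250, chr10:82833951-82897712, plus strand), had 28987, 8274 and 11555 normalised reads in WT and 28451, 9847 and 10098 in CharmeKO. The libraries numbered 1 were 2.51-fold to 3.5-fold above the other libraries of their own genotype. *Srxn1*, sulfiredoxin, which reactivates over-oxidised peroxiredoxins (ENSMUSG00000032802, chr2:152105516-152111376, plus strand), had 6829.6, 2739 and 3134 in WT and 8606, 2415 and 3458 in CharmeKO, with the same 2 libraries highest. *Prdx1*, an abundant peroxiredoxin that removes hydrogen peroxide (ENSMUSG00000028691, chr4:116685544-116700822, plus strand), had 16250.3, 9183 and 13937 in WT and 18975, 10011 and 15135 in CharmeKO. Here the libraries numbered 3 came close to those numbered 1, and the libraries numbered 2 were lowest. Per length, *Prdx1* was the second most abundant member at a mean of 109.8 RPKM (73.7 to 145), followed by *Txnrd1* at 54.5, *Srxn1* at 38.3 and *Nfe2l2* at 35.6, while *Keap1* was at 16.6. The ranges over the libraries overlapped between all neighbours in the order of the 10 levels, other than *Hmox1* above *Prdx1* and *Gclm*, at 7.54 at its lowest, above *Slc7a11*.

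**Figure D1:**
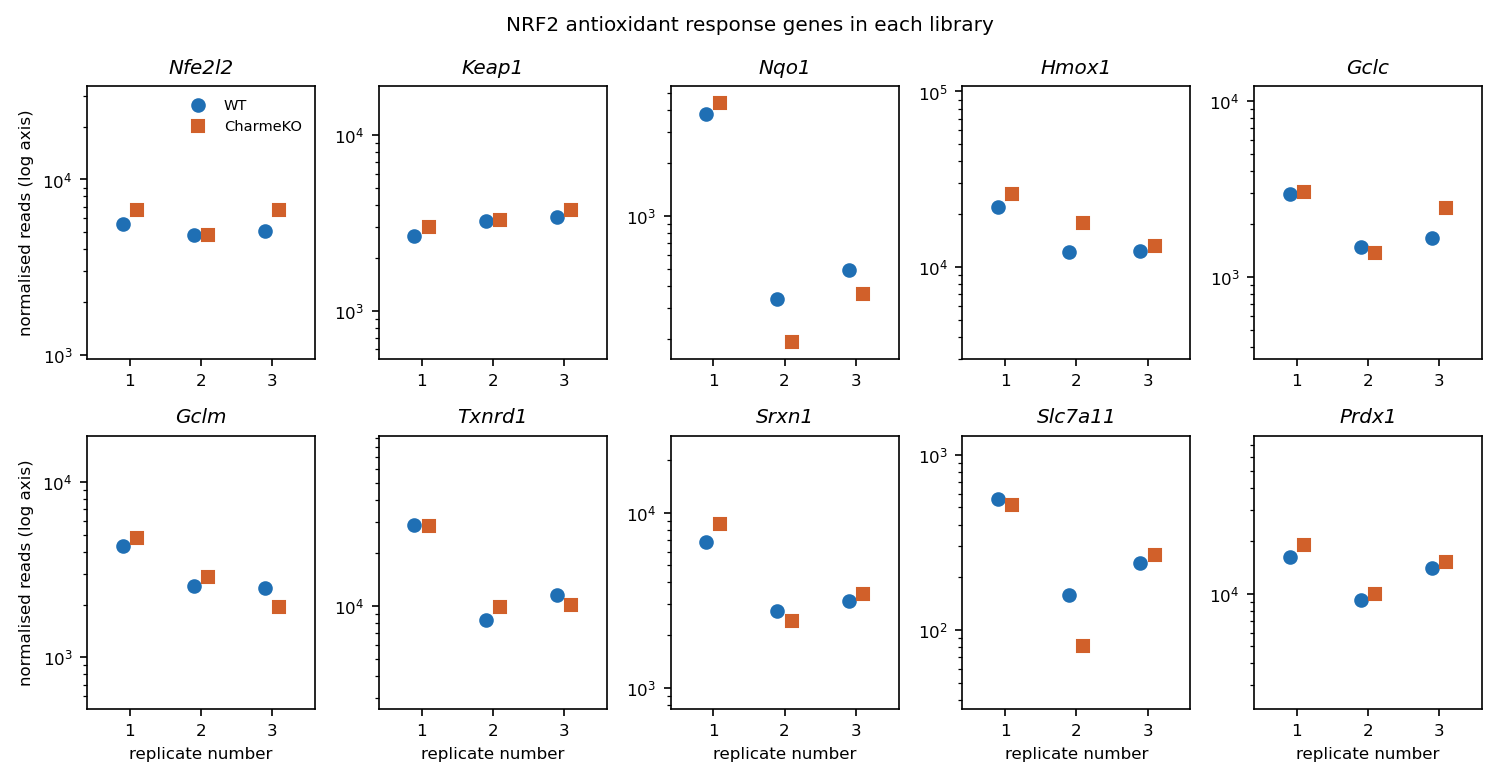
Normalised reads (log axis, each panel spanning the same number of fold) of the 10 genes against replicate number, with WT as circles and CharmeKO as squares, 1 point per library. The 8 target genes are highest at number 1 in both genotypes, from *Nqo1* with 3831 and 4411 normalised reads there to *Prdx1*, while *Nfe2l2* and *Keap1* stay nearly level.

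CharmeKO was compared with WT to ask whether the loss of *Charme* goes with a shift of this response. No member was called as different between the genotypes. With limma over 15948 genes, 0 of the 10 members were called, as were 0 genes in all (0.0%), and 0 members had an unadjusted p under 0.05, against 143 of all genes. The adjusted p of each member was 0.9999. edgeR's quasi-likelihood test also called 0 genes (158 at an unadjusted p under 0.05), and DESeq2 called 8, none of them members. WT and CharmeKO values overlapped for all 10 members, where 656 of the genes tested (4.11%) did not overlap. The log2 fold change was above 0 for 7 members and below 0 for 3, with a median of 0.10 against 0.0022 over all genes tested.

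How small a difference could have been seen varied greatly among the members and with the use of the pairs. Without the replicate number in the fit, for *Keap1* and *Nfe2l2* the 95% intervals of the log2 fold change were -0.31 to 0.52 and -0.23 to 0.68. They were -0.55 to 1.14 for *Hmox1* (log2 fold change 0.30, SE 0.351), -0.62 to 0.93 for *Prdx1* (0.16, SE 0.323), -0.76 to 1.09 for *Gclc* (0.17, SE 0.386) and -0.93 to 0.90 for *Gclm* (-0.015, SE 0.383). For *Srxn1* the interval was -1.22 to 1.41 (0.098, SE 0.549), for *Txnrd1* -1.42 to 1.44 (0.0099, SE 0.597) and for *Slc7a11* -2.14 to 1.54 (-0.30, SE 0.767). *Nqo1* had the widest, from -3.67 to 2.97 (-0.35, SE 1.38). With the replicate number as a block, where the pairing rests on the correlation of these same libraries, the intervals were several times narrower for the members that varied most. Limma then gave -0.95 to 0.25 for *Nqo1* (SE 0.224), -0.33 to 0.35 for *Txnrd1* (SE 0.126), -0.24 to 0.44 for *Srxn1* (SE 0.128) and -1.02 to 0.42 for *Slc7a11* (SE 0.271). For the other 6 members the lowest bound was -0.39, of *Gclm*, and the highest 0.64, of *Hmox1*, and all 10 intervals included 0. The signs of *Nqo1*, *Gclm* and *Txnrd1* turned with other scalings or tools, and those of 7 of the 8 target genes, *Hmox1* being the exception, when single libraries were left out.

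The libraries numbered 1 deviated together, as did those numbered 2 (r = 0.762 and 0.514 across genes), while those numbered 3 did so weakly (0.217). CharmeKO 3 went as closely with WT 2 (0.222), so the third pair is uncertain. Within the same-numbered pairs the differences between genotypes were mostly small. *Keap1*, *Hmox1* and *Prdx1* were higher in CharmeKO in all 3 pairs, as were 2616 of the genes tested (16.4%), and nothing particular to the members is read from these 3 of 10. No member was lower in all 3 pairs, as 2239 genes (14.0%) were. The pairwise log2 differences of *Hmox1* were 0.26, 0.54 and 0.087 in pairs 1, 2 and 3, those of *Prdx1* 0.22, 0.13 and 0.12, and those of *Keap1* 0.16, 0.020 and 0.14. *Nfe2l2* differed by 0.27, -0.0018 and 0.40, *Txnrd1* by -0.027, 0.25 and -0.19, *Srxn1* by 0.33, -0.18 and 0.14, *Gclc* by 0.037, -0.11 and 0.57, and *Gclm* by 0.16, 0.15 and -0.36. *Nqo1* and *Slc7a11* moved most in pair 2, where they were lower in CharmeKO by 0.81 and 0.94 on the log2 scale. With the replicate number as a block, limma and edgeR called 0 genes and DESeq2 called 64 (0.401%), with 0 members among them, so the pairing brought no member past the threshold.

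**Figure D2:**
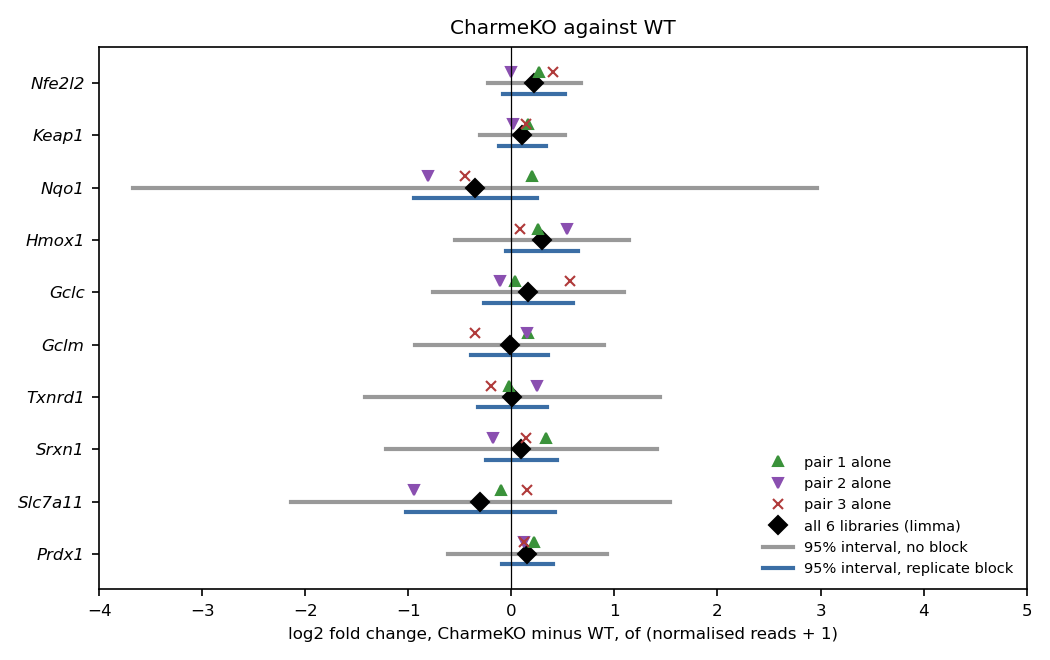
Log2 fold change of each gene, CharmeKO minus WT, on the scale of log2(normalised reads + 1): diamonds and grey bars give the limma estimate and its 95% interval without the replicate number, blue bars the interval with it as a block, and the coloured symbols the 3 same-numbered pairs. All intervals of both kinds include 0, the blue one of *Nqo1* (-0.95 to 0.25) is much shorter than its grey one, and the pairs of *Keap1*, *Hmox1* and *Prdx1* all lie above 0.

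A pair of ratios was compared because each sets partners of 1 complex against each other. The log2 ratio of *Gclc* to *Gclm*, in normalised reads, was -0.55, -0.80 and -0.58 in WT and -0.67, -1.06 and 0.35 in CharmeKO. CharmeKO 3 was the only library with more *Gclc* than *Gclm* reads. The means were -0.64 ± 0.137 and -0.46 ± 0.728 (SD, n = 3), and they differed by 0.18, less than the spread within CharmeKO (two-sided exact permutation p = 0.9, adjusted over the 2 ratios 0.9, smallest possible 0.1). Without CharmeKO 3 it was -0.22. The log2 ratio of *Nfe2l2* to *Keap1* was 1.06, 0.57 and 0.58 in WT and 1.17, 0.55 and 0.84 in CharmeKO, and was highest in the libraries numbered 1 of both genotypes. Its means of 0.74 ± 0.276 and 0.85 ± 0.309 differed by 0.12 (two-sided exact permutation p = 0.7, adjusted 0.9, smallest possible 0.1), and by -0.041 without CharmeKO 1.

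The values of the 8 target genes went with the replicate number. In both genotypes the libraries numbered 1 held the 2 highest values for all 8, as they did for 3768 of the genes tested (23.6%), and for neither regulator. *Nqo1* was 11.4-fold higher in WT 1 than in WT 2 and 7.82-fold higher than in WT 3. In CharmeKO it was 23.1-fold and 12.3-fold higher in library 1. *Slc7a11* was 3.53-fold and 2.32-fold higher in WT 1 and 6.35-fold and 1.94-fold higher in CharmeKO 1. For *Srxn1* the folds were 2.49 and 2.18 in WT and 3.56 and 2.49 in CharmeKO, and for *Hmox1* 1.79, 1.77, 1.47 and 2.00. *Gclc*, *Gclm* and *Prdx1* were 1.17-fold to 2.49-fold higher in the libraries numbered 1. The median log2 difference over the 8 targets was 1.33 between numbers 1 and 2 and 1.07 between numbers 1 and 3, against 0.021 and -0.0033 over all genes tested. *Keap1* was lower in the libraries numbered 1, at 0.784 to 0.909 of the other libraries of its genotype.

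The replicate number was tested as a factor beside genotype, a test added after these values had been seen. The limma F test called 4 of the 10 members, where it called 1379 of all genes tested (8.65%): *Nqo1* (limma adjusted p = 0.0361), *Txnrd1* (0.0361), *Srxn1* (0.0361) and *Prdx1* (0.0452). The other 4 targets lay just past the threshold, with limma adjusted p-values of 0.0508 for *Slc7a11*, 0.0545 for *Gclm*, 0.0582 for *Hmox1* and 0.0648 for *Gclc*, while *Keap1* was at 0.145 and *Nfe2l2* at 0.216. edgeR called *Nqo1*, *Txnrd1* and *Srxn1*, and the DESeq2 likelihood ratio test called all 8 targets, beside 4934 of the genes tested (30.9%). With limma, 0 members and 0 genes were called without WT 1, WT 2, CharmeKO 1 or CharmeKO 2, and all 8 targets were called without WT 3 or CharmeKO 3. The labels do not say what libraries of the same number share.

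As shares of each gene's variance over the 6 libraries, the replicate number took 98.5% for *Txnrd1*, 97.6% for *Nqo1*, 97.1% for *Srxn1*, 95.2% for *Prdx1*, 93.1% for *Gclm* and 91.5% for *Slc7a11*. *Gclc* was at 87.2%, *Keap1* at 84.0% and *Hmox1* at 83.2%, and *Nfe2l2* was lowest at 53.8%. The median was 94.2% over the 8 targets and 73.8% over all genes tested. Genotype took 29.5% for *Nfe2l2*, 12.0% for both *Keap1* and *Hmox1*, and 4.35% or less for the other 7, with a median of 1.73% over the 8 targets and 5.91% over all genes tested. The replicate number has more levels than genotype, so on average it takes the larger share even of unrelated values.

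**Figure D3:**
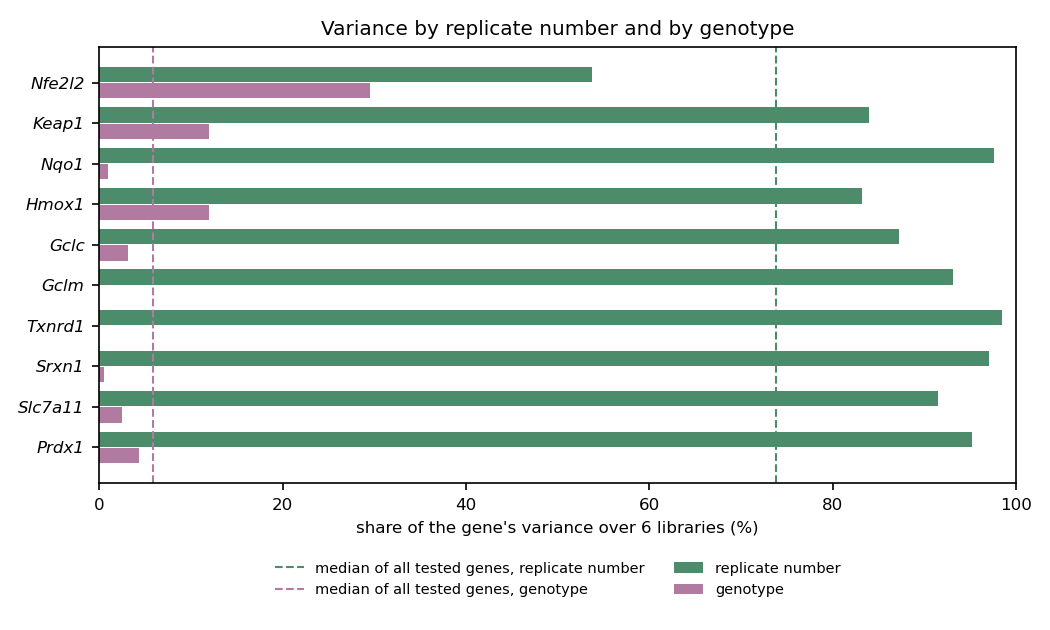
Share of each gene's variance over 6 libraries (%) that goes with replicate number (green bars) and with genotype (purple bars); dashed lines are the medians of all 15948 genes tested, 73.8% and 5.91%. All 8 target genes lie above the all-gene median for replicate number, and *Nfe2l2* at 53.8% lies below it. Having more levels, replicate number takes the larger share on average even of unrelated values.

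Markers of other cells moved with the replicate number too. The 9 measured mesothelial markers summed to 341 CPM in WT 1 and 369 in CharmeKO 1, and to 24.5 to 94.4 in the other 4 libraries. Of the 8 that were tested, 5 had both libraries numbered 1 highest and 1, *Upk3b*, was called for replicate number. The uroplakin gene *Upk3b* had 4455, 322 and 651.5 normalised reads in WT and 4537, 656 and 297 in CharmeKO. The transcription factor gene *Wt1* of the same list did not share this, with 213, 1011 and 711 in WT and 301, 1500.2 and 217 in CharmeKO, and *Krt18* and *Krt19* were not highest there either. The 15 macrophage markers summed to 231, 134 and 49.9 CPM in WT 1, 2 and 3. In CharmeKO 1, 2 and 3 they summed to 490, 354 and 26.5, so that CharmeKO 2 exceeded WT 1. *Lyz2* weighed most in both of these, with 10470 normalised reads in CharmeKO 2 against 4919 in WT 1. *Cd14*, *C1qa* and *C1qc* were also higher in CharmeKO 2 than in WT 1. The other markers of the list were lower there, such as *Csf1r*, with 336 against 1427. Of these 15 markers, 11 had both libraries numbered 1 highest and 6 were called for replicate number. Of the 6, *Cd14*, a receptor chain for bacterial lipopolysaccharide, was lowest in the libraries numbered 1, with 102 and 166 normalised reads against 235 to 793 in the others. The pan-leukocyte marker *Ptprc* had 0 reads in CharmeKO 3. The sum of the fibroblast markers was lowest in library 1 within each genotype. It was 34593 CPM in WT 1 against 58116 and 40141 in WT 2 and 3. In CharmeKO 1 it was 43683 against 48202 and 48033 in CharmeKO 2 and 3, although WT 3 lay below CharmeKO 1. This sum does not stand for each marker. Of the 12, 3 had both libraries numbered 1 highest: *Tcf21*, *Vim* and *Fbln2*. *Vim* had 206040 and 204268 normalised reads in WT 1 and CharmeKO 1 against 60556 to 131267 in the others. *Fbln2* had 372541 and 418299 there against 136213 to 331593. The 4 measured cardiomyocyte markers had their highest sums in the libraries numbered 1, but low, at 18.4 and 24.4 CPM against 5.32 to 10.3. *Tnnt2* weighed most in both. *Tnni3* was not highest there, with 12.8, 66.2 and 75.8 normalised reads in WT and 34.6, 97.3 and 29.6 in CharmeKO. The part of these cells in the target genes' differences was not tested. Schwann cell markers, at 16.5, 16.2 and 7.77 CPM in WT and 21.0, 19.1 and 3.29 in CharmeKO, were highest in library 1 within each genotype, as the macrophage markers were. Endothelial markers (31.2 to 149 CPM) and smooth muscle and pericyte markers (211 to 5743 CPM) were not highest in both libraries numbered 1.

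**Figure D4:**
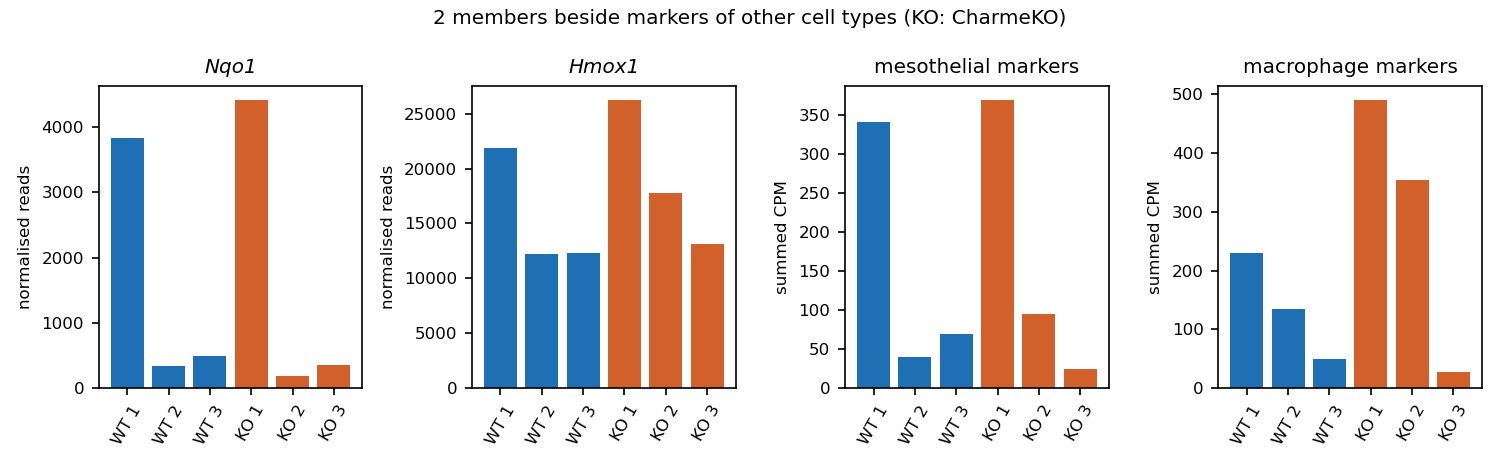
Normalised reads of *Nqo1* and *Hmox1* and summed CPM of the mesothelial and macrophage marker lists in each of the 6 libraries (WT blue, CharmeKO orange, linear axes from 0). *Nqo1* and the mesothelial sum are highest in WT 1 and CharmeKO 1, and *Hmox1* and the macrophage sum are also raised in CharmeKO 2, with 17807 normalised reads and 354 CPM. *Lyz2* weighs most in that macrophage sum.

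Likeness between members was measured as the root mean square difference of their log2 values over the 6 libraries, each centred on its own mean. Ranges were not scaled, so this measure reflects how widely a gene varied as well as in which libraries it was high. The closest members were *Hmox1* and *Gclm* (0.182), *Gclc* and *Prdx1* (0.199) and *Txnrd1* and *Srxn1* (0.205). *Slc7a11* was nearest to *Srxn1* (0.430), *Nfe2l2* to *Prdx1* (0.235) and *Keap1* to *Nfe2l2* (0.246). The last 2 genes both varied little but went opposite ways, with log2 differences between numbers 1 and 2 of -0.21 for *Keap1* and 0.34 for *Nfe2l2*. *Nqo1*, the member with the widest range, was at 0.977 from its nearest member, *Slc7a11*, and at 1.89 from *Keap1*, although its 2 highest libraries were those of the other targets.

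Among 11543 tested genes with a mean of at least 100 normalised reads, the nearest to *Nqo1* were *Peak1os* (0.279), the cardiac transcription factor gene *Gata4* (0.375) and the connexin gene *Gjb5* (0.402). *Gata4* had 6221, 1121 and 1179.9 normalised reads in WT and 7303, 498 and 953 in CharmeKO. *S100a10* (0.200) and the caveolin gene *Cav1* (0.206) were among the 3 nearest to *Slc7a11*. *Cav1* had 21496, 4105 and 8412 in WT and 14145, 2436 and 7430.2 in CharmeKO, with the libraries numbered 2 lowest, as for *Slc7a11*. *Srxn1* was nearest to *Kcnab2* (0.126), the cyclin gene *Ccnh* (0.156) and *Gpr39* (0.160). These genes are described by their values over 6 libraries alone.

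**Figure D5:**
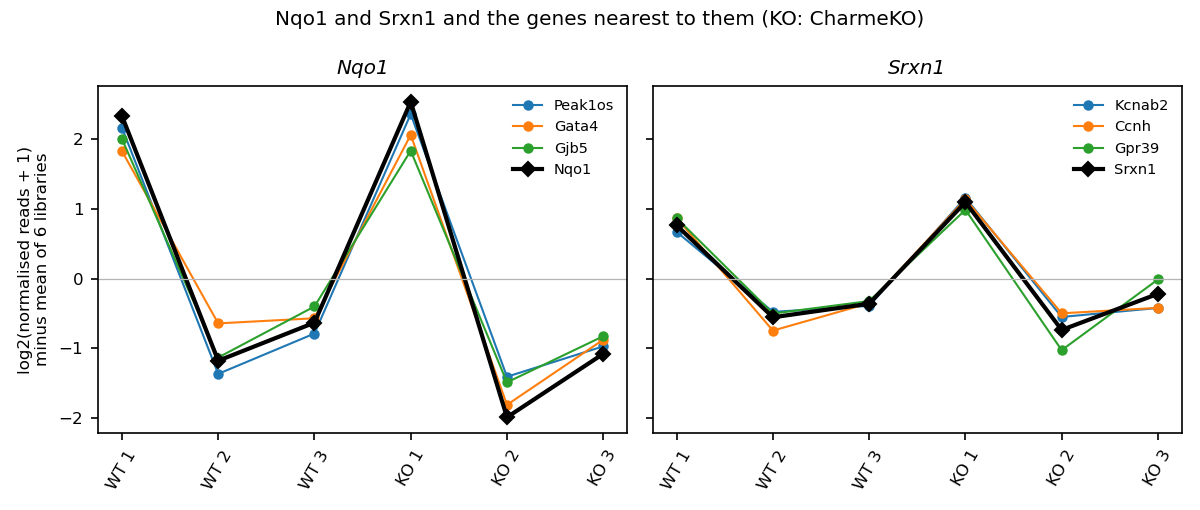
Log2(normalised reads + 1) minus the mean of the 6 libraries, for *Nqo1* and *Srxn1* (black diamonds) and the 3 genes nearest to each (coloured lines). WT 1 and CharmeKO 1 are the 2 highest libraries of every gene shown.

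The rest of the pathway was read from 10 lists that hold 174 genes besides the members, of which 169 were in the table and 163 were tested. None was called between the genotypes by limma (0 genes, with 0 at an unadjusted p under 0.05), and 93 had a log2 fold change above 0 and 70 below. Of the 163, 33 (20.2%) were called for replicate number and 63 (38.7%) had both libraries numbered 1 highest, beside 8.65% and 23.6% of all genes tested.

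Among 16 partners and regulators of NRF2, 5 were above 0 and 11 below between genotypes (median log2 fold change -0.065). *Sqstm1*, the autophagy adaptor p62 that binds KEAP1, was the most abundant by reads, with 38826, 29363 and 23570.4 normalised reads in WT and 43862, 26399.8 and 19101 in CharmeKO. It too was highest in the libraries numbered 1. *Rbx1*, a RING subunit of the ligase that KEAP1 serves, had a log2 fold change of 0.22 (SE 0.224), and *Btrc*, an F-box protein that marks NRF2 along another route, -0.22 (SE 0.191). For replicate number, the small MAF gene *Mafk* and the repressor gene *Bach2* were called. *Mafk* had 5576, 3159 and 2465 in WT and 4473, 3163 and 2263 in CharmeKO, and *Bach2* was lowest in the libraries numbered 1, at 78.8 and 59.6.

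Of 22 genes of glutathione synthesis and use, 14 were above 0 and 8 below (median 0.062), and 12 (54.5%) had both libraries numbered 1 highest. *Gsr*, glutathione reductase, had 2598, 1220.4 and 1347 normalised reads in WT and 2793, 1293 and 1105 in CharmeKO. *Esd*, esterase D, the most abundant of the list by reads, had 21440.2, 8691 and 15885 in WT and 22569.7, 10149 and 16202 in CharmeKO. Both were called for replicate number, as was *Ggt5*, a gamma-glutamyl transferase that went the other way, with 35.5, 803 and 40.6 in WT and 90.4, 1873 and 277 in CharmeKO. *Ggt5* was also the 1 gene of all lists that DESeq2 with the replicate block called between the genotypes (DESeq2 adjusted p = 0.00463), at a limma log2 fold change of 1.76. *Slc3a2*, the partner chain of SLC7A11, had a log2 fold change of 0.30 (SE 0.190) and the plasma glutathione peroxidase *Gpx3* -0.76 (SE 0.675).

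The 18 glutathione S-transferases tested had a median of 0.19, with 13 above 0 and 5 below, and 4 (22.2%) were highest in both libraries numbered 1. *Mgst1* had a log2 fold change of 0.72 (SE 0.437), *Gstm4* -0.25 (SE 0.358) and *Gstm2*, the most abundant by reads, 0.23 (SE 0.261). Of the 3 called for replicate number, *Gsta3* was highest in the libraries numbered 1, with 383 and 655 normalised reads, and *Gstt1* and *Gstk1* were highest in those numbered 2.

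In the thioredoxin and peroxiredoxin systems, 11 of 18 genes were above 0 and 7 below (median 0.030). *Prdx5* had a log2 fold change of 0.32 (SE 0.288) and *Msrb3*, a methionine sulfoxide reductase, -0.33 (SE 0.335). Thioredoxin itself, *Txn1*, had 6878, 2941.5 and 5608 normalised reads in WT and 7768, 3039.8 and 5683 in CharmeKO, and its inhibitor *Txnip* was the reverse, with 3408, 12617 and 8105 in WT and 3723, 11498 and 6287 in CharmeKO. Both were called for replicate number, as were the sestrin genes *Sesn1* and *Sesn3*, with *Sesn3* at 1709.6 and 1469 in the libraries numbered 1 and 10087 and 16238 in those numbered 2.

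NADPH supplies both systems, and of 11 genes 6 were above 0 and 5 below (median 0.0045). *Idh1* had a log2 fold change of 0.32 (SE 0.174) and *Me1*, malic enzyme 1, -0.26 (SE 0.253). Among the pentose phosphate enzymes, transketolase, *Tkt*, had 8601 to 10960.4 normalised reads, while transaldolase, *Taldo1*, had 10306, 2247.5 and 5266 in WT and 11663, 2416.5 and 3462.5 in CharmeKO. *Taldo1*, *Pgd*, *Nadk*, *Idh2* and *Nadk2* were called for replicate number, of which the first 3 were highest in both libraries numbered 1 and *Idh2* lowest there.

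Of 13 genes of heme and iron handling, 8 were above 0 and 5 below (median 0.077). The ferritin light chain gene *Ftl1* had 147556, 66909.6 and 82049.7 normalised reads in WT and 164060.2, 76302 and 85300.2 in CharmeKO, again highest in the libraries numbered 1. *Slc11a2* had a log2 fold change of 0.34 (SE 0.312) and *Pir* -0.15 (SE 0.565). *Blvrb*, a biliverdin reductase, *Slc40a1*, the iron exporter ferroportin, and *Tfrc*, the transferrin receptor, were called for replicate number. *Blvrb* had 2445 and 2416 in the libraries numbered 1 against 801 to 944 in the others, and *Slc40a1* had 59.1 and 84.6 against 311 to 987.

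Of 29 genes of quinone, carbonyl and drug detoxification, 15 were above 0 and 14 below (median 0.011), and 13 (44.8%) were highest in both libraries numbered 1. *Cbr1*, a carbonyl reductase, had a log2 fold change of 0.15 (SE 0.159). *Aldh3a1*, an aldehyde dehydrogenase, had 129, 71.5 and 56.0 normalised reads in WT and 116, 20.6 and 7.83 in CharmeKO, lower in CharmeKO in each pair (log2 fold change -1.53, SE 0.964, limma adjusted p = 0.9999). *Akr1a1*, the most abundant by reads, was at -0.059 (SE 0.366). The genes called for replicate number were *Akr1b3*, *Aldh9a1*, *Ugdh* and *Ces2g*.

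The enzymes that remove superoxide and peroxide numbered 7, with 3 above 0 and 4 below (median -0.037). *Ccs*, the copper chaperone of superoxide dismutase 1, had a log2 fold change of 0.28 (SE 0.151), *Pon3* -0.41 (SE 0.293) and *Sod3*, the extracellular superoxide dismutase, -0.27 (SE 0.956). *Sod3* ranged from 802 to 12612 normalised reads within CharmeKO. Of the NADPH oxidase genes, which make oxidants, 4 of 10 were above 0 and 6 below (median -0.15). *Nox4*, an oxidase of fibroblasts, had 515, 274 and 542 in WT and 455, 272 and 163 in CharmeKO (log2 fold change -0.64, SE 0.460), while *Cyba* was at 0.093 (SE 0.268) and *Rac1* at 0.0043 (SE 0.269).

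ATF4, a transcription factor of the amino acid response, shares *Slc7a11* with NRF2. Of the 22 other genes tested in its list, which holds its own gene beside its targets, 4 (18.2%) had both libraries numbered 1 highest. That was beside 23.6% of all genes tested. Of the 22, 17 were above 0 and 5 below between the genotypes (median 0.057). *Cebpb* had a log2 fold change of 0.58 (SE 0.421), with 10703, 21081 and 13921 normalised reads in WT and 13098, 34746 and 23099 in CharmeKO, and *Trib3* -0.27 (SE 0.293). For replicate number, 6 of the 22 were called, beside 1379 of all genes tested (8.65%). Among these 6, *Psat1* and *Mthfd2* were highest in the libraries numbered 3 and, within each genotype, *Cebpb* and *Atf3* in those numbered 2. *Psat1*, of serine synthesis, had 2993, 2048 and 5299.6 in WT and 3894, 2414 and 6314 in CharmeKO.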

How the data were processed

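Poly(A) RNA-seq libraries of cultured CFs were analysed, 3 WT and 3 CharmeKO, grouped and numbered by their titles. The authors aligned reads with STAR, counted them per gene on the reverse strand on Ensembl release 87 with *Charme* added, filtered out genes of low count and applied DESeq2 normalisation. What they deposited is a normalised read signal: the reads of a gene over the size factor of its library. STAR counts only reads that map to 1 place and overlap 1 gene. The submitters' notes name GRCm39, while the coordinates given here are those of GENCODE M21 (GRCm38), matched by gene ID, and *Charme* was taken to be the only feature without an Ensembl ID.

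Reads were obtained by dividing each library by its smallest positive value, which gave whole numbers, within 1e-06, for 100% of 116676 values. Of 19446 genes, the 15948 that reached 10 reads in 2 or more libraries were tested with limma 3.58.1 in R 4.3.3 (mean-variance trend, log2(value + 1), two-sided, Benjamini-Hochberg over all of them, threshold 0.05), with genotype as the only term. Fold changes are on that scale, which understates changes of genes with few reads. RPKM values use the union of annotated exons. edgeR 4.0.16 (quasi-likelihood, TMM), DESeq2 1.42.0, other scalings, pseudocounts of 0.1 and 10, no filter, a replicate block and leaving out each library were the alternatives. Ratios were compared with exact permutation tests. The tests were checked on simulated reads.

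The members, lists, tests and rules were chosen with earlier results of these data known. Named genes are the members, *Charme*, and in each list the gene with the lowest limma p in each direction and the one with the highest mean. To these were added the 3 genes nearest to each of the 3 members with the widest range, of which 1 is not reported here. The genes that replicate number or DESeq2 with the block called were named after their values had been seen. So were *Upk3b*, *Wt1*, *Krt18*, *Krt19*, *Cd14*, *Ptprc*, *Lyz2*, *Csf1r*, *C1qa*, *C1qc*, *Tcf21*, *Vim*, *Fbln2*, *Tnnt2*, *Tnni3*, *Xist* and *Ddx3y*. Where the groups share numbers, deviations from group means were correlated across genes with r = 0.762, 0.514 and 0.217 for numbers 1, 2 and 3, and with -0.643 to 0.222 between different numbers. All 3 were above 0.1, so the numbers were taken to pair the libraries. CharmeKO 3 with WT 2, at 0.222, passed this rule as well, so the rule does not single out the pair numbered 3.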

Additional observations from a re-analysis of the deposited data

How the results depend on the processing

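Of 160 alternative values of the members' log2 fold changes between genotypes, 135 kept their direction and 25 reversed, and no member was called under any alternative. edgeR turned *Nqo1* to 0.090, *Gclm* to 0.039 and *Txnrd1* to -0.010, DESeq2 turned them to 0.085, 0.032 and -0.017, and scaling by library totals turned *Gclm* to 0.020. With 1 of the 6 libraries left out at a time, the range was -1.71 to 0.73 for *Nqo1*, -0.36 to 0.30 for *Gclm*, -0.49 to 0.53 for *Txnrd1*, -0.43 to 0.51 for *Srxn1*, -0.90 to 0.43 for *Slc7a11*, -0.076 to 0.50 for *Gclc* and -0.082 to 0.41 for *Prdx1*, while *Nfe2l2* (0.14 to 0.38), *Keap1* (0.0022 to 0.19) and *Hmox1* (0.036 to 0.57) stayed above 0. The differences in log2 ratio ranged from -0.22 to 0.48 for *Gclc* to *Gclm* and from -0.041 to 0.28 for *Nfe2l2* to *Keap1*. The number of genes called between genotypes was 8 with DESeq2, which gave no adjusted p for *Nqo1*, and 64 with DESeq2 and the replicate block, where 1 gene of the pathway lists was called, and 0 otherwise, also with the replicate block in limma and edgeR. With pairs in place of free splits, the exact permutation p of the ratios was 1.0 and 0.5, and the block changed no other call. For replicate number, itself tested only in fits with genotype, edgeR called 655 genes and DESeq2 4934, 8 of them members, and leaving out single libraries gave 0 to 5888 genes and 0 to 8 members. The fits with a library left out rest on fewer samples, with 1 library for 1 of the numbers. Why the counts rose or fell was not tested. The count of members higher in CharmeKO in all 3 pairs was 4 with library totals. The depth, at least 83 reads per member and library, did not limit these comparisons as much as the spread between libraries did.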
